A study of Mus musculus with 10 samples.

Results

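The 10 genes described here make, break down or sense prostaglandins. They are Ptgs1, Ptgs2, Ptges, Ptges2, Ptgis, Hpgds, Hpgd, Ptger2, Ptger3 and Ptger4, taken by name from the array's gene annotation and read by 20 of its 56605 probes. They are 10 of 25160 named genes. RNA was measured on 10 two-colour arrays, each of which sets one sample against another in 2 dyes. Of the 10 genes, 6 could be tested in colon organoids, which are gel cultures of colon epithelium, and 9 in whole colon tissue; a gene was tested where its probe was well above background throughout at least 1 group. The brightest probe stood for its gene.

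The 6 organoid samples were 2 replicates each of KOWI, KO and WT, set against each other on 6 arrays. The organoids lacking p53 came from mice with VillinCreERT2, a recombinase active in intestinal epithelium once tamoxifen is given, and Trp53 fl/fl alleles. Cultures received 800 nM 4OH-tamoxifen for 2 days, and KO cells were then selected with Nutlin-3A, which halts cells that still have p53. KOWI were KO organoids labelled as Wnt-independent and kept without sWnt, a surrogate Wnt protein, and without CHIR, a GSK3 inhibitor that turns on Wnt signalling. KO and WT grew in full medium, where CHIR was at 3 µM and sWnt at 0.328 nM. That full medium also held noggin at 100 ng/ml, and 25% of it was conditioned by R-spondin. Every group's medium held EGF at 50 ng/ml and A83-01, an inhibitor of TGFβ receptors, at 0.5 µM. Whether the KOWI medium held R-spondin and noggin as well is not stated here. KOWI and KO thus differ in medium and in adaptation to it, and KO and WT in Nutlin-3A selection as well as in Trp53. KOWI and WT differ in all of these. Within each contrast such differences cannot be told apart here. The tissue came from 2 KO and 2 WT male mice, paired as KO against WT, with each pair measured in both dye orientations on 4 arrays. KO mice were a cross of Axin2CreERT2 with Trp53 fl/fl and were injected with tamoxifen. The recombinase acts in cells that express Axin2, so cells of the tissue other than these and their descendants keep Trp53. For 5 to 7 days KO and WT mice alike drank 2% DSS, which damages the gut lining, and they were killed 2 months later. The labels call the other mice and organoids only WT and do not give their alleles. Ages were not given in the labels.

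Prostaglandins are short-lived lipid signals made from arachidonic acid, which phospholipases free from membranes. The cyclooxygenases Ptgs1 and Ptgs2 turn it into prostaglandin H2, and terminal synthases turn that into prostaglandin E2, prostacyclin or prostaglandin D2. Hpgd ends the signal by oxidising prostaglandins, and receptors on the cell surface, among them Ptger2, Ptger3 and Ptger4, carry it into the cell. In the mouse colon prostaglandin E2 is known to support repair of the epithelium after injury, and in colorectal tumours PTGS2 is often raised and HPGD lost.

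Promoter sequences are shown for the 3 genes whose values differed most between KOWI and WT organoids. They come from RefSeq on build GRCm38.p6 and run from 250 bases before to 50 bases after the gene start, 5′ to 3′ on the gene's strand. The Ptgs2 window is chr1:150099781-150100080 on the plus strand, that of Ptgs1 is chr2:36230176-36230475 on the plus strand, and that of Hpgd is chr8:56294302-56294601 on the plus strand. Capitals mark the matches to the motifs listed after the sequences.
Ptgs2: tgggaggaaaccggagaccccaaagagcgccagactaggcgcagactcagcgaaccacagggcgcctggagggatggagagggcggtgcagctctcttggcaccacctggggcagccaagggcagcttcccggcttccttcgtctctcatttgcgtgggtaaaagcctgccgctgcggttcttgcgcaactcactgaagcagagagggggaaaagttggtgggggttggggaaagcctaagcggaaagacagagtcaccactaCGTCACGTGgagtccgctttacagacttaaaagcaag
Ptgs1: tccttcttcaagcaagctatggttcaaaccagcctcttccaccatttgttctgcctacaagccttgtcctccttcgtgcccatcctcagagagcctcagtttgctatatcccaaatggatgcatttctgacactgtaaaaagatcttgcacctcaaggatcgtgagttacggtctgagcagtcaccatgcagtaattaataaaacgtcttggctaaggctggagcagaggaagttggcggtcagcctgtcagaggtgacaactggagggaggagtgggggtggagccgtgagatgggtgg
Hpgd: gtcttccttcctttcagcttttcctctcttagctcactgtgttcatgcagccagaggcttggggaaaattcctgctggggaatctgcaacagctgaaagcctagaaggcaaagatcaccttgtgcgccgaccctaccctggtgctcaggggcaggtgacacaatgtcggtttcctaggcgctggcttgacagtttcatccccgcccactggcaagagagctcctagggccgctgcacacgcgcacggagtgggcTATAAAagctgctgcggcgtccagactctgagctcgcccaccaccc

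Both strands were searched in the 9 promoters found under the genes' names. The motifs were the TATA box TATAAA, the cAMP response element TGACGTCA and its core CGTCA, the AP-1 site TGANTCA, the E-box CACGTG, the TEAD site GGAATG, the TCF core CTTTGA and the p53 consensus decamer. In Ptgs2 the core CGTCA, at bases 14 to 18 after the gene start, overlaps the E-box at bases 17 to 22. Of 32841 promoters of this length 20.8% hold CGTCA and 7.15% hold CACGTG. Hpgd holds TATAAA at bases 5 to 10 after its start, as 13.6% of promoters hold it anywhere in the window. Ptgs1 has no match to any of these letters. Elsewhere among the 9, Ptges2 holds CACGTG and GGAATG and Ptges holds GGAATG, which 14.7% of promoters hold. A match is a description of letters only.

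Across the series, 44.6% to 59.1% of spots were well above background per channel. The share of spots that the scanner software flagged as outliers was 1.33% to 4.41% on tissue arrays, 0.808% and 2.18% on the 2 organoid arrays without KOWI, and 13.7% to 16.3% on the 4 with KOWI. The number of arrays limits the precision of every value here. The single probe of Trp53 read -0.20 and -0.31 in KOWI, -0.32 and -0.25 in KO and 0.75 and 0.33 in WT organoids, as log2 sample values centred on the gene's mean. KO over WT was -0.83 (SE 0.19, limma adjusted p = 0.561) in organoids and -0.21 (SE 0.17, adjusted p = 0.616) in tissue. The tissue pairs read -0.46 and 0.04, so the KO mouse of pair 2 was not below its WT partner. The labels do not say which part of Trp53 is deleted, so this probe may lie outside it. All 12 general epithelium markers were above background in organoids, against 1 of 12 fibroblast markers (Fap), 1 of 9 mast cell markers (Tpsb2) and 6 of 14 tuft cell markers. Some markers of other cell types were above background too, with 5 of 8 for smooth muscle, 5 of 8 for skeletal muscle, 3 of 8 for endothelium, 4 of 9 for macrophages, 4 of 7 for neutrophils, 4 of 7 for T cells, 4 of 8 for neurons and glia and 1 of 6 for B and plasma cells. The tuft cell genes Trpm5, Pou2f3 and Il25 were not above background in any organoid group.

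The clearest values were those of the cyclooxygenases in KOWI organoids. Ptgs1 and Ptgs2 were higher in KOWI than in WT, by 6.69-fold and 4.31-fold, while the degrading enzyme Hpgd read 3.16-fold lower without passing the test. For both cyclooxygenases WT replicate 2 was above background in 1 of its 2 channels. Of the 6 tested genes, 2 were called higher and 0 lower in KOWI over WT at an adjusted p under 0.05; among all 10200 genes tested 3.48% were called higher and 2.11% lower, 5.59% in either direction. Each organoid value below is a log2 sample value from the 6 arrays, centred on the gene's mean, with replicate 1 (Cy3) before replicate 2 (Cy5). In RNA from whole samples, more cells of a type and more RNA per cell cannot be told apart.

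Ptgs2, the cyclooxygenase that inflammation and growth factors induce, was read by 1 probe (mm9 chromosome 1, bases 151954744 to 151954803, plus strand). Its values were 0.80 and 1.64 in KOWI, -0.27 and -0.38 in KO, and -0.82 and -0.96 in WT. The 3 groups do not overlap, with both KOWI samples at the top and both WT samples at the bottom. KOWI over WT was 2.11 on the log2 scale (SE 0.29, limma adjusted p = 0.0261). KOWI over KO was 1.54, or 2.91-fold (SE 0.29, adjusted p = 0.0882), and KO over WT was 0.57 (SE 0.29, adjusted p = 0.953), so neither neighbouring pair of groups passed the test. The arrays that set KOWI directly against WT read 1.73 and 2.43, and those that set it against KO read 1.21 and 1.93. The spots were dim, with raw intensities of 273 and 1958 for KOWI against 184 and 71 for WT on those first 2 arrays, before background correction and dye normalization. The scanner software's own ratios on them were larger, at 3.13 and 3.41. The call was lost without KOWI replicate 2 (1.64, adjusted p = 0.0897), without KO replicate 2 (2.08, adjusted p = 0.0714) and without WT replicate 2 (1.87, adjusted p = 0.101). It was also lost with the authors' value table (3.28, adjusted p = 0.0543), no filter on dim probes (adjusted p = 0.0537) and outlier spots kept (adjusted p = 0.0862), and the scanner's ratio gave 3.21 (adjusted p = 0.0384). KOWI over KO was called without KOWI replicate 1 (2.01, adjusted p = 0.0452), KO replicate 1 (1.76, adjusted p = 0.0439) or WT replicate 1 (1.57, adjusted p = 0.0494).

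Ptgs1, the cyclooxygenase that many tissues make constantly, was read by 1 probe above background (mm9 chromosome 2, bases 36107644 to 36107703, plus strand). A second Ptgs1 probe was not above background on any array. The first probe's values were 1.30 and 1.62 in KOWI, 0.80 and -1.15 in KO, and -0.98 and -1.59 in WT. Both KOWI samples lie above all others, and the KO samples lie far apart, one nearer KOWI and one between the WT samples. KOWI over WT was 2.74 (SE 0.51, adjusted p = 0.0467). KOWI over KO was 1.63 (SE 0.51, adjusted p = 0.245) and KO over WT 1.11 (SE 0.51, adjusted p = 0.936). The 2 arrays of KO against WT read 2.68 for KO replicate 1 and 0.12 for KO replicate 2, and without KO replicate 1 the fitted difference was 0.06. The call in KOWI over WT was lost without KOWI replicate 2 (2.09, adjusted p = 0.366), KO replicate 2 (2.45, adjusted p = 0.111) or WT replicate 1 (2.78, adjusted p = 0.118). It was also lost with the scanner's ratio (3.09, adjusted p = 0.167), the authors' value table (3.22, adjusted p = 0.183), a background offset of 10 (2.87, adjusted p = 0.0711), no filter on dim probes (adjusted p = 0.101), outlier spots kept (adjusted p = 0.125), the mean of both probes (1.49, adjusted p = 0.0531) and no replicate term (adjusted p = 0.0659). KOWI over KO was called without KOWI replicate 1 (2.29, adjusted p = 0.0407), KO replicate 1 (2.40, adjusted p = 0.0112) or WT replicate 2 (1.93, adjusted p = 0.0334), and was 0.58 without KO replicate 2.

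Hpgd, which encodes the dehydrogenase that inactivates prostaglandin E2, lay on the other side. Its probe (mm9 chromosome 8, bases 58799399 to 58799458, plus strand) gave -1.22 and -0.45 in KOWI, 0.40 and -0.38 in KO, and 0.80 and 0.85 in WT. The WT samples are highest, and both KOWI samples lie below both KO samples, though KOWI replicate 2 and KO replicate 2 are close. KOWI over WT was -1.66 (SE 0.37, adjusted p = 0.0653), KOWI over KO -0.85 (SE 0.37, adjusted p = 0.399) and KO over WT -0.81 (SE 0.37, adjusted p = 0.933). Each arm's 2 direct arrays had 1 sign, with -2.07 and -1.24 for KOWI against WT and -0.45 and -1.17 for KO against WT. On 1 of the 2 arrays of KOWI against KO the spot was an outlier and was left out of the fit, and the other read -0.85. Without KO replicate 2, KOWI over KO was -1.44, and without KOWI replicate 1 it was -0.28.

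**Figure D1:**
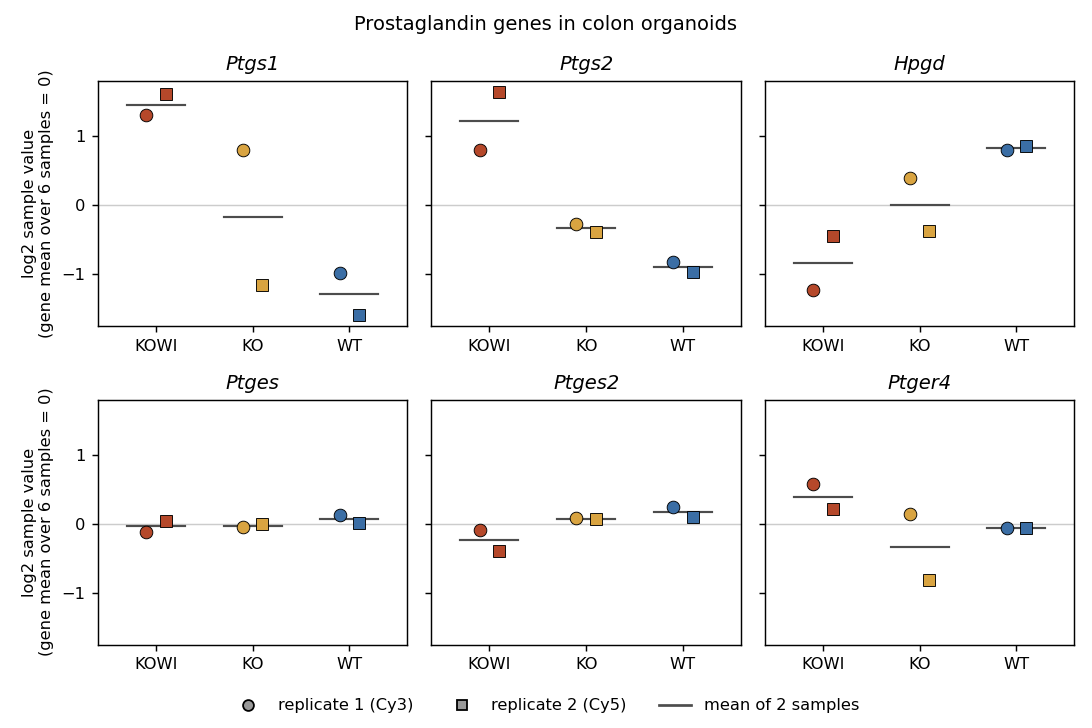
Log2 sample values of the 6 tested genes in organoids, with the gene's mean over 6 samples at 0; circles are replicate 1, squares replicate 2 and bars the mean of 2 samples. Ptgs1 and Ptgs2 are highest in both KOWI samples, Hpgd is highest in both WT samples, and the Ptges values all lie within 0.12 of 0.

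The terminal synthases differed less. Ptges encodes the inducible microsomal prostaglandin E synthase, and its brightest probe (mm9 chromosome 2, bases 30744995 to 30745054, minus strand) read -0.12 and 0.04 in KOWI, -0.05 and -0.01 in KO, and 0.12 and 0.01 in WT. KOWI over WT was -0.10 (SE 0.17, adjusted p = 0.788). A dimmer probe of the same transcript (bases 30747838 to 30747897) read 0.22 and 0.46 in KOWI, 0.09 and -0.18 in KO, and -0.41 and -0.18 in WT. Both KOWI samples lie above the others there, and KOWI over WT was 0.64 (SE 0.20, adjusted p = 0.147 among 18354 probes). The third probe gave 0.07 (SE 0.17), so the 3 probes of Ptges gave different values. Ptges2, a membrane-associated prostaglandin E synthase, read -0.09 and -0.39 in KOWI, 0.08 and 0.07 in KO, and 0.24 and 0.10 in WT. Both KOWI samples were lowest, at a KOWI over WT of -0.41 (SE 0.17, adjusted p = 0.237), with 1 array left out as an outlier.

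The bright Ptges probe had a mean log2 intensity of 15.7 in organoids, a range in which ratios were small for most genes. Over the 1172 genes at or above 15 the median absolute KOWI over WT was 0.14, against 0.27 for the 9028 dimmer genes. Its signal also followed the array. Each KO and WT sample was read on 2 arrays in the same dye, once beside KOWI and once beside the other group, and the raw intensity of this spot was higher beside KOWI in all 4 samples. It was 47639 beside KOWI and 12310 beside WT for KO replicate 1, and 148004 beside KOWI and 24060 beside WT for KO replicate 2. It was 36595 beside KOWI and 9049 beside KO for WT replicate 1, and 209258 beside KOWI and 34021 beside KO for WT replicate 2. These are ratios of 3.87 to 6.15, where the median gene's was 1.09 to 1.88. A larger ratio than that of Ptges was read for 6.3% and 8.8% of genes in KO replicates 1 and 2. In WT replicates 1 and 2 it was 17.9% and 11.8% of genes. For Ptgs1 those shares were 29.4% and 33.8% in KO and 23.8% and 17.5% in WT. The ratio itself was 1.45 and 2.32 in KO and 3.32 and 4.63 in WT for Ptgs1. For Ptgs2 it was 0.96 and 1.36 in KO and 1.30 and 0.78 in WT. The part of this array-wise signal in the ratios was not tested.

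**Figure D2:**
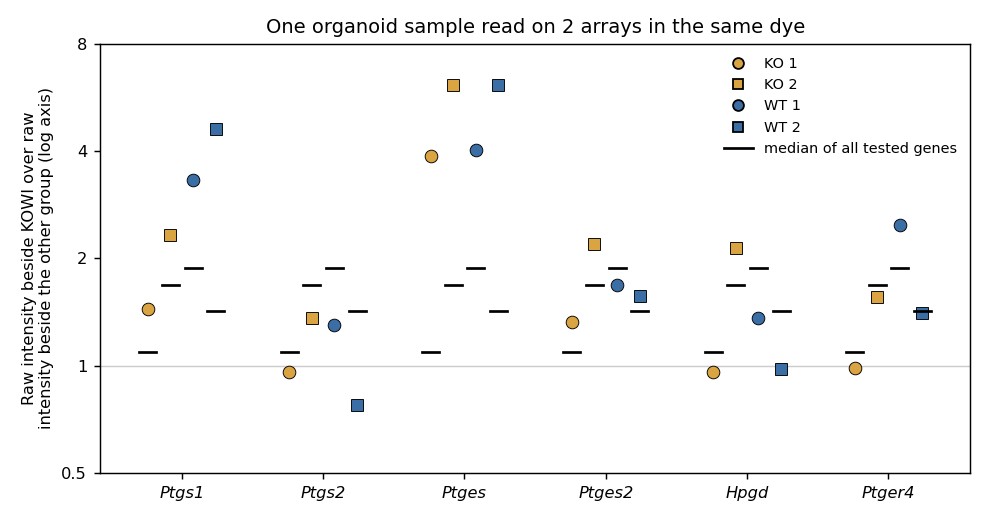
Raw spot intensity of a KO or WT organoid sample on the array it shared with KOWI, over its intensity on the array it shared with the other group, in the same dye (log axis); black bars are the median of 10200 genes for that sample. The 4 Ptges points, from 3.87 to 6.15, and the 4 Ptgs1 points, from 1.45 to 4.63, lie above their bars, and the 4 Ptgs2 points lie below theirs.

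Of the receptors, Ptger4 alone was tested in organoids. It encodes EP4, a prostaglandin E2 receptor that raises cAMP. Its brightest probe (mm9 chromosome 15, bases 5183422 to 5183481, minus strand) read 0.57 and 0.21 in KOWI, 0.14 and -0.81 in KO, and -0.06 and -0.06 in WT. The KOWI samples lie above the rest, and the WT samples lie between the KO samples. KOWI over KO was 0.72 (SE 0.26, adjusted p = 0.30), KOWI over WT 0.45 (SE 0.26, adjusted p = 0.392) and KO over WT -0.28 (SE 0.26, adjusted p = 1). A second probe gave 0.16 (SE 0.19) for KOWI over WT and 0.18 for KOWI over KO.

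**Figure D3:**
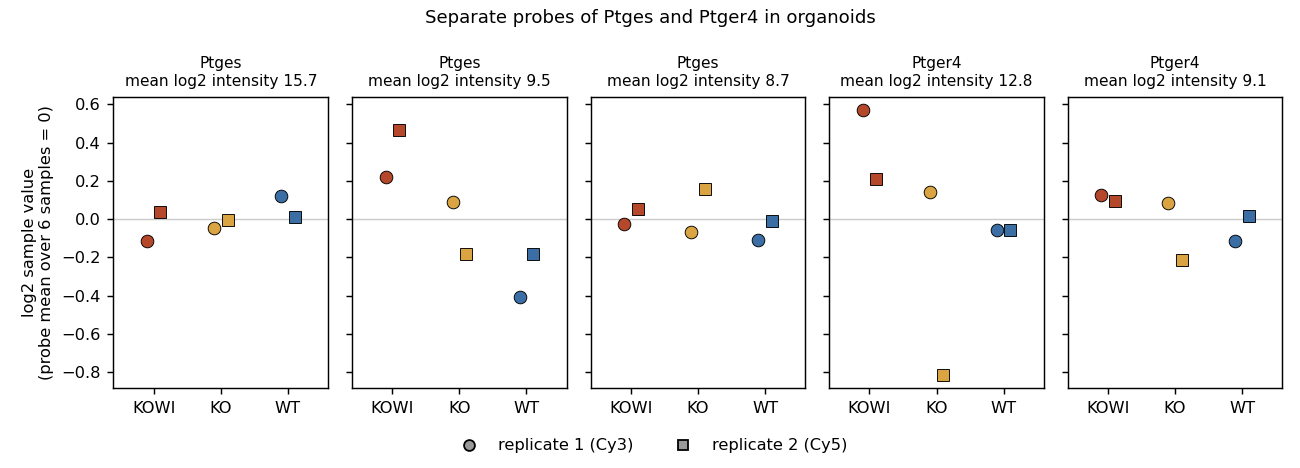
Log2 sample values of the 3 Ptges probes and of the 2 Ptger4 probes above background in organoids, each with its mean over 6 samples at 0; circles are replicate 1 and squares replicate 2. The second Ptges probe runs from -0.41 to 0.46 where the brightest stays between -0.12 and 0.12, and the second Ptger4 probe varies less than the first.

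The other 4 genes were not tested in organoids. Hpgds, a prostaglandin D2 synthase of mast cells and other immune cells, was above background in 0 of 12 organoid channels. Ptgis, the prostacyclin synthase, has 3 probes. The brightest was above background in both channels of KOWI replicate 1, in 1 of 2 of KO replicate 2, and in 0 channels of KOWI replicate 2, KO replicate 1 or the WT samples. Another was above background in 11 of 12 channels, but its spot was flagged as an outlier on 5 of the 6 arrays, and the remaining one was above background in 0 channels. Ptger2, the EP2 receptor, which also raises cAMP, was above background in 1 channel each of KOWI replicate 2 and KO replicate 1. Both channels belong to 1 spot flagged as an outlier, so no usable spot of Ptger2 was above background in organoids. Ptger3, the EP3 receptor, which lowers cAMP, was above background in 7 of 12 channels with its brightest organoid probe, spread over all groups. The probe that stood for Ptger3 in tissue was above background in 4 of 12 organoid channels. These were both channels of KO replicate 1 and both of WT replicate 1, and 0 were of KOWI. A level below background there is a limit of the array, not an absence of the transcript.

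Counting groups that do not overlap, 3 of the 6 genes (Ptgs1, Ptgs2 and Ptger4) had both KOWI samples above both WT samples and 2 (Ptges2 and Hpgd) had both below. Over all genes 23.8% were so placed above and 23.9% below, 47.7% in either direction. The same 3 and 2 genes did not overlap in KOWI over KO, where the shares were 16.3% and 21.6%, or 37.9% in all. In KO over WT 1 gene (Ptgs2) lay above and 3 (Ptges, Ptges2 and Hpgd) below, against 18.6% and 12.3%, or 30.9% in all. The tests called 0 of the 6 in KO over WT, where limma called 0% of genes, and 0 in KOWI over KO, where it called 0.422%. Unadjusted p was under 0.05 for 560 genes in KO over WT, whose smallest adjusted p was 0.0620. The contrasts share samples, and their values are given side by side.

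**Figure D4:**
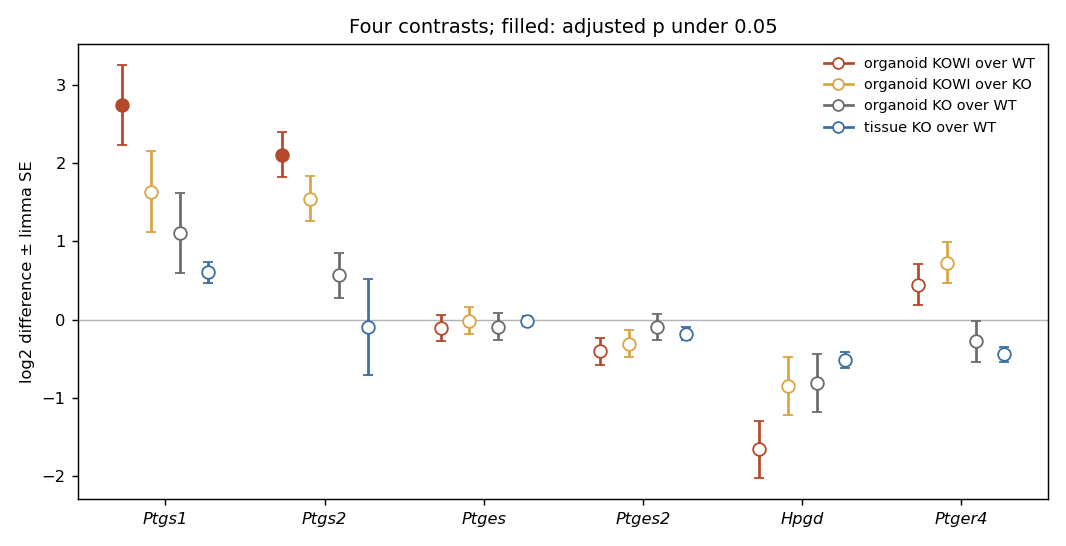
Log2 difference of each contrast for the 6 genes tested in both experiments, with limma's SE; filled points passed an adjusted p of 0.05. The filled points are Ptgs1 (2.74) and Ptgs2 (2.11) in organoid KOWI over WT.

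In colon tissue 2 months after DSS, 0 of the 9 tested genes passed the test, as did 0% of the 12830 genes tested (1880 had an unadjusted p under 0.05, and the smallest adjusted p was 0.254). The test has 2 mouse pairs. Both pairs were above 0 for 2 of the 9 genes and below 0 for 4, and the pairs had opposite signs for 3. Over all genes 32.3% were above 0 in both pairs and 34.7% below, 67% in either direction. Pair 1 is given before pair 2 throughout, as the log2 ratio of KO over WT.

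Among the cyclooxygenases, Ptgs1 read 0.41 and 0.79, a mean of 0.60 or 1.52-fold (SE 0.13, adjusted p = 0.295). All 4 of its arrays were above 0, from 0.15 to 0.99. Ptgs2 read -1.09 and 0.90, a mean of -0.09 (SE 0.61, adjusted p = 0.962). Its arrays within each pair had 1 sign, at -1.34 and -0.83 in pair 1 and 0.75 and 1.04 in pair 2, so the 2 mouse pairs went opposite ways. The spots were dim, with raw intensities of 197 to 591 in KO and 159 to 703 in WT.

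Of the synthases, Ptgis read 0.64 and 0.37, a mean of 0.50 (SE 0.10, adjusted p = 0.288), and a second Ptgis probe read 0.31 and 0.39. Ptges2 read -0.26 and -0.09, a mean of -0.18 (SE 0.08, adjusted p = 0.439). Ptges read 0.01 and -0.05 with its bright probe, at a log2 intensity of 15.97, and -0.41 and 0.59 with a dimmer one. Hpgds read -0.29 and 0.03, a mean of -0.13 (SE 0.11, adjusted p = 0.658), from a probe that spans bases 65070081 to 65073609 of mm9 chromosome 6 on the minus strand, a stretch longer than the probe itself.

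Hpgd read -0.39 and -0.65, a mean of -0.52 (SE 0.10, adjusted p = 0.286), and all 4 of its arrays lay below 0, from -0.91 to -0.18. The receptors Ptger3 and Ptger4 lay on the same side. Ptger3 read -0.74 and -0.28, a mean of -0.51 (SE 0.15, adjusted p = 0.348), and a second Ptger3 probe read -0.49 and -0.14. Ptger4 read -0.57 and -0.32, a mean of -0.44 (SE 0.10, adjusted p = 0.296). Ptger2 was above background in 3 of 4 KO channels and 1 of 4 WT channels and was not tested.

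**Figure D5:**
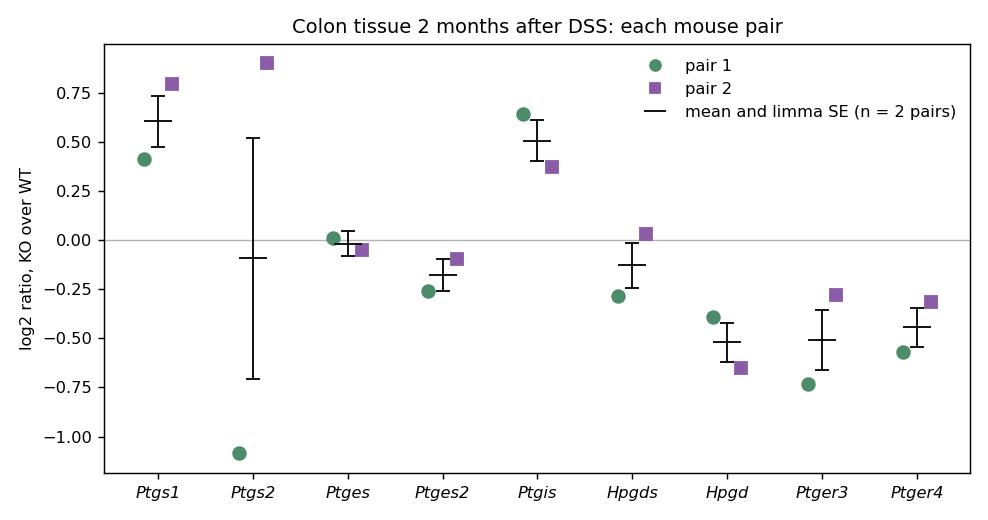
Log2 ratio of KO over WT in each of the 2 mouse pairs (circles pair 1, squares pair 2) for the 9 genes tested in tissue, with the mean and limma's SE. Ptgs1 and Ptgis lie above 0 in both pairs, Ptges2, Hpgd, Ptger3 and Ptger4 below it, and the 2 Ptgs2 points lie at -1.09 and 0.90.

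Markers of other cell types were read in the same tissue ratios. In KO over WT, 10 of 10 fibroblast markers were positive (median 0.17, list means 0.24 and 0.56 in the pairs), as were 8 of 8 of smooth muscle (0.15), 8 of 8 of skeletal muscle (0.36) and 6 of 6 of endothelium (0.36). Of macrophage markers 7 of 8 were positive (median 0.25) and of tuft cell markers 5 of 7 (0.21), whose list means were -0.14 and 0.46. General epithelium had 0 of 11 positive (median -0.11) and mast cells 1 of 5 (-0.13). T cells had 6 of 6 positive (0.20), neutrophils 3 of 4 (0.14), neurons and glia 4 of 6 (0.13) and B and plasma cells 0 of 3 (-0.13). Over all genes 48.9% were positive. None of these markers was called, and their part in the values of Ptgs1, Ptgis, Hpgd and the receptors was not tested. In organoids the 11 epithelium markers tested had a median KOWI over WT of -0.15, with 3 positive and 1 called lower, Vil1, a protein of the epithelial brush border (-1.23, SE 0.19, adjusted p = 0.0326), which is named here after its value was seen. Krt18, among the 3 positive, was at 0.78 (SE 0.17, limma adjusted p = 0.0639). Of all genes, 52% were positive in KOWI over WT. Of the other marker lists, 1 gene was called in that contrast, the T cell kinase Lck, at 1.36 (SE 0.25, adjusted p = 0.0462). Lck was the only T cell marker tested in organoids. The macrophage receptor Mrc1, also named after its value was seen, was at 1.57 (SE 0.38, adjusted p = 0.0793). Cd14, the other macrophage marker tested there, was at 0.18 (SE 0.31, limma adjusted p = 0.806). Single genes do not establish a cell type, and the part of other cell types in the values of Ptgs1 and Ptgs2 was not tested.

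The KO effect was also set against itself across the 2 experiments. Tissue minus organoid was -0.51 (SE 0.49) for Ptgs1, -0.66 (SE 0.69) for Ptgs2, 0.29 (SE 0.32) for Hpgd and -0.16 (SE 0.36) for Ptger4, with limma adjusted p from 0.693 to 0.868. None of the 8849 genes tested in both was called (1111 had an unadjusted p under 0.05). A difference of KO effects between tissue and organoids was thus not detectable for these genes with 2 ratios on each side. The organoid ratios were KO over WT of the same replicate number. No array set those samples together and they are not known to be paired, so these SEs and adjusted p rest on that choice.

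Other genes of arachidonate release and eicosanoid signalling showed no call. Of 41 listed, 40 were on the array, 16 were tested in organoids and 26 in tissue. In organoid KOWI over WT 11 of the 16 were positive, with a median of 0.22 against 0.02 for all genes, of which 52% were positive. The values furthest from 0 were Pla2g12a, a secreted phospholipase, at 0.69 (SE 0.32, adjusted p = 0.281), Alox5ap, which presents arachidonate to lipoxygenase, at 0.48 (SE 0.22, adjusted p = 0.267), and Pla2g4a, the cytosolic phospholipase that supplies the cyclooxygenases, at 0.44 (SE 0.26, adjusted p = 0.403). In KO over WT 11 of the 16 were positive, with a median of 0.19 against 0.06 for all genes, of which 61.4% were positive. Pla2g5, another secreted phospholipase, read -0.34 and -0.10 in KOWI, 1.10 and 0.53 in KO, and -0.49 and -0.71 in WT. Both KO samples were highest, at a KO over WT of 1.41 (SE 0.23, adjusted p = 0.340) and a KOWI over KO of -1.03 (SE 0.23, adjusted p = 0.132). Akr1c18, an aldo-keto reductase, was at 0.59 in KO over WT and at -0.43 in KOWI over KO. In KOWI over KO Alox5ap was at 0.43, and 8 of 16 genes were positive against 44.1% of all genes. Pla2g4a was at 0.34 in KO over WT.

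In tissue 14 of the 26 were positive, with a median of 0.02 against 0.00 for all genes, of which 48.9% were positive. Tbxas1, the thromboxane synthase of platelets and macrophages, read -0.21 and 2.27, a mean of 1.03 (SE 0.76, adjusted p = 0.591) that rests on pair 2. Pla2g5 read -1.07 and -0.39 (mean -0.73, SE 0.22, adjusted p = 0.347), the other way from its organoid KO over WT, and Akr1c18 read 1.05 and 0.22 (mean 0.64, SE 0.26, adjusted p = 0.417).

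The genes whose pattern over the 6 organoid samples was nearest to Ptgs2, by root mean square difference of centred log2 values among 10200 genes, were Adssl1 (0.12), an adenylosuccinate synthase of muscle, Stbd1 (0.13), a glycogen-binding protein, and LOC664787 (0.14). Their KOWI over WT values were 2.15, 1.89 and 1.93. Among the nearest to Ptgs1 were Enah (0.25), an actin regulator, and Otop1 (0.30), a proton channel, with KOWI over WT of 2.90 and 2.44. In both the KO replicates lay apart as for Ptgs1, with Enah at 0.37 and -0.82 and Otop1 at 1.16 and -0.98. All these genes were chosen by the same sample values, so their likeness to Ptgs2 or Ptgs1 is not a separate result.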

How the data were processed

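Per the file headers, the authors extracted each spot's mean intensity and local background intensity with Agilent Feature Extraction 12.2.0.7 (protocol GE2_1200_Dec17, design 074809, probe coordinates on mm9), without normalization, and deposited a log10 ratio of Cy5 over Cy3 from processed signals. A value table with log2 ratios was deposited too. The submitters' processing notes name limma for it, and its version and steps are not given in the sources used here. It ran as Cy5 over Cy3, with slopes of 0.967 to 0.999 on the scanner's ratio and column medians from -0.000581 to 0.0171; its centring stays unknown.

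Here the intensities were corrected with normexp (offset 50) and loess within arrays in limma 3.58.1 under R 4.3.3. Control and outlier spots had no weight, outlier spots were set to missing, spots of a probe were averaged, and the brightest probe stood for its gene. RefSeq (GRCm38.p6) named 35405 probes by accession, 9124 by symbol and 25 by synonym, and 12051 stayed unnamed. Outlier spots removed 4382 of 14582 genes above background in organoids and 1198 of 14028 in tissue. Dye swaps of a mouse pair were averaged, and limma tested whether the 2 pairs' mean differed from 0. The organoid ratios were fitted by least squares to 6 sample values, tested with limma for group and replicate number, since every replicate 1 was Cy3 and every replicate 2 Cy5. P-values were adjusted by Benjamini-Hochberg over all genes (threshold 0.05). The series text calls the replicates biological, but no label ties the organoid replicates to separate mice, so their p-values may measure technical spread. Organoid and tissue arrays were on 1 slide each, separate from each other. For 1 tissue array the title and the Cy3 source name give different replicate numbers, and the title's was used. Same-numbered organoid samples deviated together with correlations of -0.01 to 0.22, which does not pair them.

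The 10 genes and all lists were chosen with earlier results of these data known. Named beside the 10 were the 3 eicosanoid genes furthest from 0 in each contrast, and the 3 genes nearest in pattern to each called gene, of which 1 is not reported here. The alternatives tried are named with the dependence on processing below; treating every probe separately was chosen after seeing the data.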

Additional observations from a re-analysis of the deposited data

How the results depend on the processing

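In KOWI over WT, Ptgs1, Ptgs2 and Hpgd kept their sign under every alternative that gave a value, with ranges of 1.49 to 3.69, 1.64 to 3.28 and -1.78 to -1.09. Some alternatives left the value itself unchanged and were no check of its sign. These were no dim filter and no replicate block for all of these genes, and outliers kept and arrays as independent for Ptgs1 and Ptgs2. Arrays as independent, which counts each array as a replicate, is among the calls counted next for each gene. It gave the smallest adjusted p of Ptgs2 and Hpgd. Ptgs1 was called in 5 of 15 alternatives (adjusted p from 0.000447 to 0.366), Ptgs2 in 9 of 15 (0.000151 to 0.101) and Hpgd in 2 of 11 (0.00246 to 0.162); with its outlier spot missing, 4 of the 6 fits without a sample could not be made for Hpgd or Ptges2. The genes called among the 10 in KOWI over WT were 2, and became 1 with the scanner's ratio, offset 10, the mean of all probes or no replicate block, 0 with the authors' value table, no dim filter or outliers kept, 5 with arrays as independent, 3 with median centring, where Hpgd joined (adjusted p = 0.0452), and 0 to 2 with a sample left out. In KOWI over KO they were 0, 4 with arrays as independent and 0 to 2 with a sample left out.

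All genes called in KOWI over WT were 570, against 151 with the scanner's ratio, 198 with median centring, 4 with the value table, 252 with no dim filter, 6 with outliers kept, 350 with the mean of all probes, 3735 with arrays as independent and 0 to 725 with a sample left out; no replicate block gave 410. In KOWI over KO they were 43, against 0 with the scanner's ratio, the value table or outliers kept, 17 with offset 10, 28 with median centring, 4 with no dim filter, 27 with the mean of all probes, 2294 with arrays as independent, 72 with every probe separate and 0 to 120 with a sample left out; no replicate block gave 40. In KO over WT they were 0, against 1 with the mean of all probes, 653 with arrays as independent and 0 to 3 with a sample left out. In tissue they were 0, against 865 with median centring and 588 with arrays as independent. The causes were not tested, beyond that arrays as independent counts each array as a replicate. In tissue the sign of Ptgs2 changed in 2 of 13 alternatives, between -0.73 and 0.55, and those of Ptgs1, Ptgis, Ptges2, Hpgd, Ptger3 and Ptger4 in 0 of 13. Their sizes moved, over 0.28 to 0.93 for Ptgs1, 0.15 to 0.86 for Ptgis, -0.31 to -0.04 for Ptges2, -0.66 to -0.38 for Hpgd, -0.82 to -0.16 for Ptger3 and -0.69 to -0.20 for Ptger4. No dim filter, outliers kept, arrays as independent and no replicate block left each of these tissue values unchanged. Ptgs2 and Hpgds were read from spots not above background in every channel.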
